A study of Drosophila melanogaster with 4 samples.

Results

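The Y chromosome of *Drosophila melanogaster* carries few protein-coding genes, and the counts of 10 of them are described here: *kl-2*, *kl-3*, *kl-5*, *ORY*, *WDY*, *CCY*, *Ppr-Y*, *Pp1-Y1*, *Pp1-Y2*, and *ARY*. They were taken by name, and all 10 were found among the 13947 genes listed for each scRNA-seq library and among the 17807 genes listed for the nuclear RNA of the multiome library. The annotation places 23 of the genes listed for scRNA-seq and 113 of those listed for nuclei on the Y, and every other Y-linked gene was counted alongside for comparison. At least 1 transcript of 7 of the 10 genes was found in the 0- to 8-h cells, of 6 in the 8- to 20-h cells, and of 7 in the nuclei.

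All samples came from embryos of *vas-GFP (II)*; *vas-GFP (III)* flies, in which the transgene is driven in the germline, so that green cells or whole gonads could be sorted. Germ cells of 0 to 8 h after egg laying formed one scRNA-seq library, and germ cells of 8 to 12 h and dissociated gonads of 12 to 20 h were pooled into a second. Nuclei of germ cells and gonads from 0 to 20 h were pooled into a multiome library, which gave nuclear RNA and chromatin accessibility (ATAC) of the same nuclei. Each library mixed male and female embryos of one genotype without treatment, and germ cells as well as somatic gonadal precursors (SGPs), the somatic cells that enclose them, and other soma carried along in the sort.

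The Y-linked genes are best known as male fertility factors. *kl-2*, *kl-3*, and *kl-5* encode heavy chains of axonemal dyneins, the motors of the sperm tail; *ORY* and *CCY* encode coiled-coil proteins; *WDY* encodes a WD40-repeat protein; *Pp1-Y1*, *Pp1-Y2*, and *Ppr-Y* are related to protein phosphatase 1 and its regulators; and *ARY* encodes a protein of the aldehyde reductase family. Several of these genes contain giant introns rich in satellite repeats, and their major known site of expression is the primary spermatocyte of the larval and adult testis, a cell type that does not yet exist in the embryo.

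The 3 RNA libraries held 3802 cells with 57370140 unique molecular identifiers (UMIs, 1 for each captured transcript), 12569 cells with 132310415 UMIs, and 3022 nuclei with 27225261 UMIs, with medians of 15961.5, 4896, and 2423.5 UMIs per cell or nucleus. No cell barcode was shared between any pair of libraries. Each library is 1 sample, so there is no replicate error and no test across samples; values are UMIs per 1000000 UMIs of a cell class (counts per 1000000, CPM) with exact 95% Poisson intervals, ratios carry exact conditional 95% intervals, and all intervals cover counting error only. Where no UMI was seen, up to 3 counts remain possible. Germ cells past zygotic activation were placed into 3 stages and sexed by the ratio of X-linked to autosomal UMIs, for which males and females formed separate modes (0.144 and 0.193 at stage 1, 0.141 and 0.218 at stage 2, 0.1396 and 0.231 at stage 3), and Y-linked genes took no part in clustering or sexing. Stage 1 comes from the 0- to 8-h library and stages 2 and 3 from the 8- to 20-h library. Stage and library therefore cannot be told apart between the first and the later stages. Within the later library, stage was set by how the sexes clustered, without a marker of age. Stage 2 was the cluster with both sexes mixed, with 53.9% of cells on the low side of the X-linked ratio. Stage 3 was the clusters of nearly a single sex, with 93.4% and 2.80% of cells on that side. Whether stage 3 cells are older than stage 2 cells was not tested.

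A pair of features of these genes bear on how they can be counted. The first is their structure on the BDGP6 assembly: 6 of the 10 genes span at least 50 kb, and almost all of this is intron. *Ppr-Y* spans 248 kb (Y:1636574-1884846, plus strand), *kl-3* 227 kb (Y:336381-563165, plus strand), *WDY* 214 kb (Y:2273422-2487777, plus strand), *kl-5* 115.2 kb (Y:22250-137486, minus strand), *kl-2* 91.1 kb (Y:573088-664173, plus strand), and *ORY* 56.6 kb (Y:3561745-3618339, plus strand). *CCY* spans 16.9 kb (Y:3649996-3666928, plus strand), whereas *Pp1-Y1* (Y:9833-10786, plus strand), *Pp1-Y2* (Y:3539437-3540722, minus strand), and *ARY* (Y:702430-704048, plus strand) are 0.954, 1.29, and 1.62 kb long. In 6 of the 10 gene models, those of *kl-2*, *kl-5*, *ORY*, *CCY*, *Ppr-Y*, and *Pp1-Y1*, the exons exceed the coding sequence by at most 9 bases. These models hold practically no untranslated sequence, whereas the libraries tag the 3′ ends of transcripts, so that their levels may be undercounted by an amount that was not tested.

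The second feature is a near-copy. *FDY*, a further Y-linked gene outside the 10 (Y:3022289-3024024, plus strand), is a copy of the autosomal gene *vig2*, and all of its 1736 bases aligned to *vig2* with 96.9% identity outside gaps. Of all windows of 91 bases in *FDY*, 13.9% contained no difference from *vig2*, and the median was 2 differences. A coding stretch of 60 bases at which 6 differ is shown as in RefSeq Release 6, since only reads over such capital letters tell the Y-linked transcript from the autosomal one; capitals mark the differing bases.
FDY (Y:3023892-3023951, plus strand): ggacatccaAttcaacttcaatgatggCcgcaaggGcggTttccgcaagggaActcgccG
vig2 (3R:25124975-25125034, plus strand): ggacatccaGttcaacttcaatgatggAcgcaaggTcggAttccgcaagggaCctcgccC
*FDY* UMIs are therefore given as uncertain wherever they appear, and beside the count in female cells, which carry no Y.

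The genes that made up the Y-linked UMIs differed between the libraries. In the 0- to 8-h cells the 10 genes gave 106 of 130 Y-linked UMIs (81.5%, exact binomial 95% interval 73.8% to 87.8%), and *kl-3* with 53 and *kl-2* with 46 UMIs made up nearly all of them. *WDY* gave 3 UMIs there, and *kl-5*, *ORY*, *CCY*, and *ARY* gave 1 each. In the 8- to 20-h cells the 10 genes gave 55 of 420 Y-linked UMIs (13.1%, 10.0% to 16.7%), while *FDY* gave 362 (86.2%). *kl-3* again led the 10 genes with 32 UMIs, followed by *kl-2* with 7, *ORY* with 6, *kl-5* with 5, *CCY* with 3, and *WDY* with 2. In the nuclei the 10 genes gave 761 of 820 Y-linked UMIs (92.8%, 90.8% to 94.5%), and their order was different again: *kl-3* gave 389, *WDY* 215, *kl-5* 88, *Ppr-Y* 59, *ORY* 7, *kl-2* 2, and *CCY* 1. Thus *kl-2*, second in early cells, was nearly undetected in nuclei, whereas *Ppr-Y*, with 59 nuclear UMIs, was at 0 in both scRNA-seq libraries. Introns make up 85.3% of *kl-2* and 99.3% of *Ppr-Y*. Cells and nuclei were counted by different programs, and how each treated reads in introns was not tested.

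**Figure D1:**
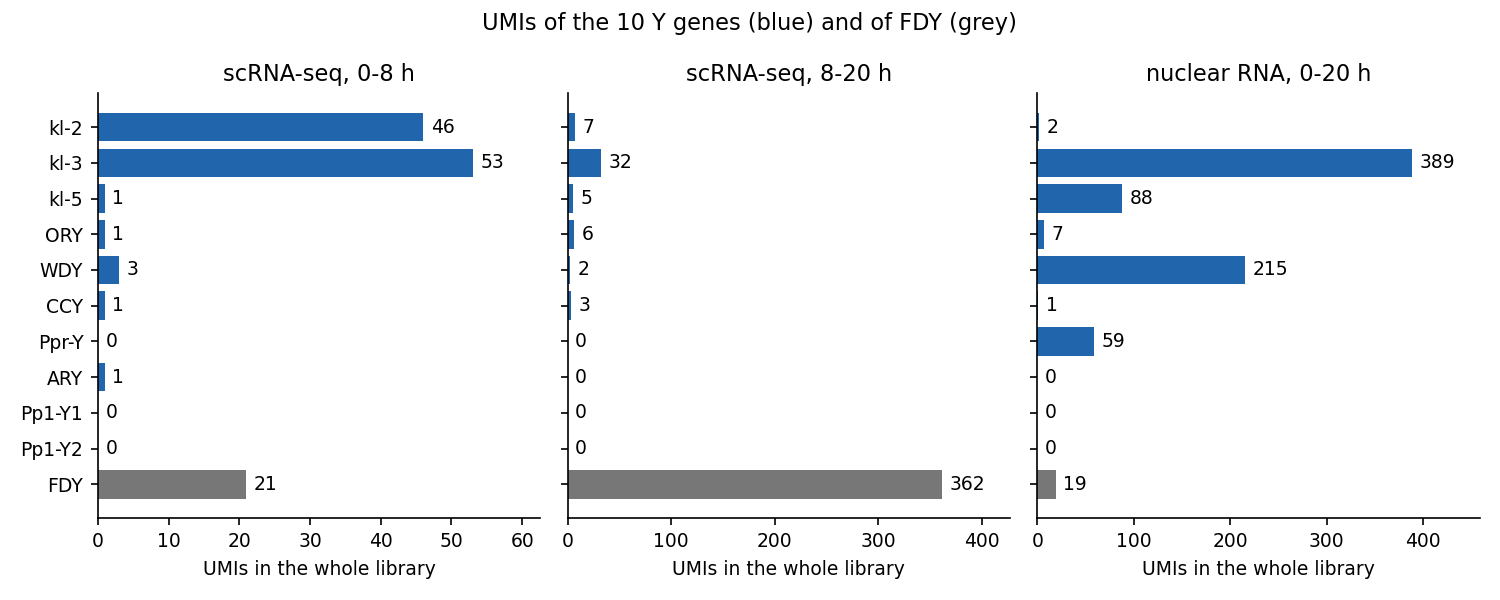
UMIs of each of the 10 Y-linked genes (blue bars) and of *FDY* (grey bars) in the whole of each RNA library, with the count beside each bar and a separate horizontal axis per library. *kl-2* and *kl-3* lead at 0 to 8 h with 46 and 53 UMIs, *FDY* leads at 8 to 20 h with 362, and *kl-3* and *WDY* lead in nuclei with 389 and 215.

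Per length of the gene, the nuclear counts did not even out. *kl-3* gave 1.72 nuclear UMIs per kb of its span, *WDY* 1.00, *kl-5* 0.764, *Ppr-Y* 0.238, *ORY* 0.124, *CCY* 0.0591, and *kl-2* 0.0220. Among the 3 dynein genes, *kl-3* thus stood higher in nuclei than *kl-5*, and *kl-2* far below both, although all 3 encode proteins of similar size, with coding sequences of 13377, 13779, and 13677 bases for *kl-2*, *kl-3*, and *kl-5*. Per kb of exon, the scRNA-seq libraries together gave 6.12 UMIs for *kl-3*, 3.96 for *kl-2*, and 0.439 for *kl-5*. *Pp1-Y1* and *Pp1-Y2*, the single-exon phosphatase genes, were at 0 in all 3 libraries, and *ARY* was seen as 1 UMI in a single male cell of stage 1. For these short genes the limit set by a count of 0 was 0.0523 CPM in the 0- to 8-h library, 0.0227 in the 8- to 20-h library, and 0.110 in the nuclei.

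To follow the genes from the start of germline development, the early germ cells of the 0- to 8-h library were examined first. These 1788 cells fell into 5 clusters with falling levels of *nos*, a maternally provided germ plasm transcript. They were called early and were not sexed, since sexing was applied only to clusters with more *CG4415*, a germ cell gene switched on at activation, than *nos*. *CG4415* stood at 2.63 to 47.9 CPM in the 5 clusters, and whether activation had begun in these cells was not tested. The distance between the modes of a fit to their X-linked ratio, in units of the spread of the modes (Ashman's D), was 0.0380 to 2.37, against 5.04 to 6.31 at the 3 later stages. Together they held 49 UMIs of the 10 genes (1.71 CPM, 1.26 to 2.25), of which *kl-2* gave 28, *kl-3* 20, and *WDY* 1. The 274 cells with the highest *nos* level (865 CPM) held none of the 10 genes, which allows up to 0.716 CPM. The next 407 cells (*nos* 543 CPM) held 9 UMIs or 1.29 CPM, the 220 cells at *nos* 335 held 0, the 601 cells at *nos* 186 held 18 or 1.70 CPM, and the 286 cells at *nos* 184 held 22 or 5.14 CPM (3.22 to 7.78). The Y-linked transcripts were therefore most frequent in one of the clusters with the least *nos*. The leading genes of that cluster were *SNCF*, *Z600*, *pgc*, and *CG4440*, of which *Z600* is an early zygotic gene of the blastoderm and *pgc* a repressor of transcription in pole cells.

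Although these early cells were not sexed, their Y-linked UMIs lay mostly on one side of the X-linked ratio. When each cluster was divided at its median ratio of X-linked to autosomal UMIs, the 893 cells below the median held 47 UMIs (3.23 CPM, 2.37 to 4.29) and the 895 cells at or above it held 2 (0.141 CPM, 0.0171 to 0.510). *kl-2* contributed 27 UMIs below and 1 above, and *kl-3* 19 and 1. In the cluster with the most Y-linked UMIs the split was 21 against 1, or 9.65 (5.97 to 14.7) against 0.475 (0.0120 to 2.65) CPM. The division at the median was a description and assigned no sex.

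**Figure D2:**
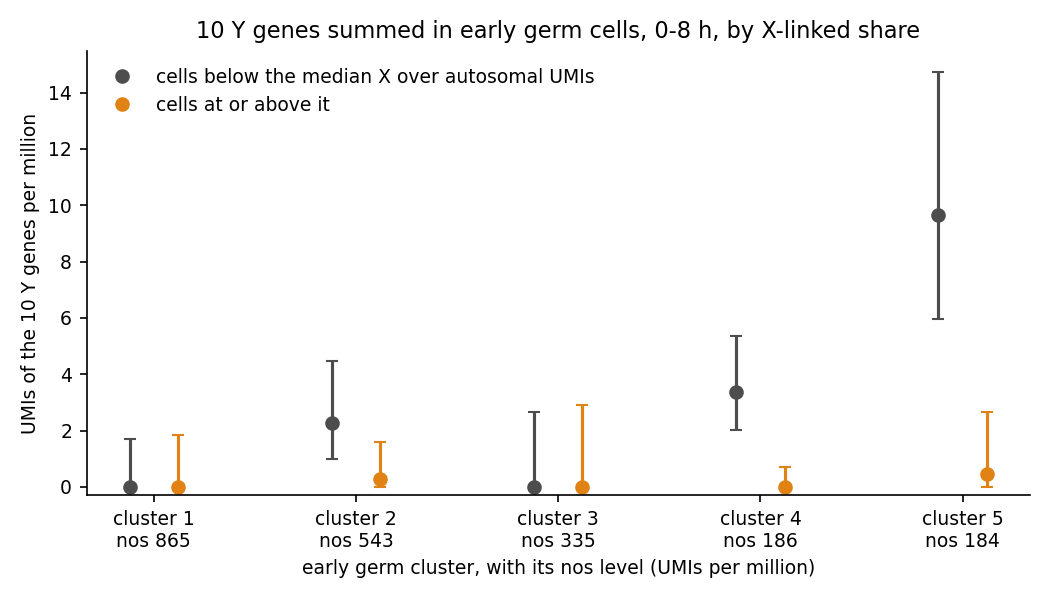
Summed CPM of the 10 Y-linked genes in the 5 early germ cell clusters, ordered by falling *nos* level in CPM, for cells below the cluster median of X-linked over autosomal UMIs (dark) and for cells at or above it (orange); bars are exact 95% Poisson intervals. In the last cluster the values are 9.65 below and 0.475 at or above the median, and clusters 1 and 3 are at 0 on both sides.

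After zygotic activation, the male germ cells carried Y-linked UMIs and the female germ cells nearly none. At stage 1, 832 male cells held 53 UMIs of the 10 genes (3.80 CPM, 2.84 to 4.97) and 696 female cells held 2 (0.170 CPM, 0.0206 to 0.613), a ratio of 22.4 (5.90 to 190). With 50 in place of 150 principal components, stage 1 took in 445 male and 265 female cells at 3.20 and 0.440 CPM, and the ratio was 7.26 (1.80 to 63.4). *kl-3* gave 30 UMIs in males and 1 in females, for a ratio of 25.3 (4.21 to 1033), and *kl-2* gave 17 and 1, for a ratio of 14.4 (2.25 to 600). The other UMIs in stage 1 males were 2 of *WDY* and 1 each of *kl-5*, *ORY*, *CCY*, and *ARY*. The 2 female UMIs lay in cells whose median depth was 29832.5 UMIs, against 17259.5 for all stage 1 female cells. Of the 7485 genes with at least 20 UMIs at this stage, 0.107% were at least 4-fold higher in males; *kl-3* was the only one of the 10 genes with enough UMIs to be counted there, and it was among them.

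At stage 2, 984 male cells held 39 UMIs of the 10 genes (1.96 CPM, 1.39 to 2.67) and 903 female cells held 0, which makes the male level at least 12.5-fold higher against the 3 counts that a count of 0 allows; the lower limit of the exact interval, which also covers the error of the male count, was 9.67. The male UMIs came from 6 genes: *kl-3* gave 22, *kl-2* 6, *kl-5* 4, *ORY* 3, *WDY* 2, and *CCY* 2. For *kl-3* alone the male level was at least 7.04-fold higher, with a lower limit of 5.26. Genes at least 4-fold higher in males made up 0.415% of the 8194 tested at this stage, and *kl-3*, again the only one of the 10 with at least 20 UMIs, was one of them. At stage 3, 1089 male cells held 5 UMIs (0.268 CPM, 0.0870 to 0.626), 4 of *kl-3* and 1 of *ORY*, and 1078 female cells held 0, with a lower limit of the ratio of 0.993. None of the 10 genes reached 20 UMIs at stage 3, where 1.26% of 7937 genes were at least 4-fold higher in males.

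Within the 8- to 20-h library, the summed level of the 10 genes in males was thus 7.30-fold higher at stage 2 than at stage 3 (2.88 to 23.7), and that of *kl-3* was 5.15-fold higher (1.75 to 20.5). Between stages 1 and 2, which come from different libraries, the ratio was 1.94 (1.26 to 3.01) for the sum, 1.95 (1.09 to 3.54) for *kl-3*, and 4.05 (1.52 to 12.5) for *kl-2*. The make-up of the sum differed between classes: *kl-2* was 58.3% of the *kl-2* and *kl-3* UMIs in early germ cells (43.2% to 72.4%), 36.2% in stage 1 males (22.7% to 51.5%), and 21.4% in stage 2 males (8.30% to 41.0%), and stage 3 males had 4 UMIs of *kl-3* and 0 of *kl-2*. Neighbouring intervals in this order overlapped, while those of early germ cells and stage 2 males did not. Those classes come from different libraries, so stage and library cannot be told apart in that contrast. The median depth per male cell was 17192.5 UMIs at stage 1, 20930 at stage 2, and 19949 at stage 3.

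*FDY* followed a different course. Its UMIs in males numbered 14 at stage 1 (1.00 CPM), 147 at stage 2 (7.38 CPM), and 138 at stage 3 (7.40 CPM), so that between stages 2 and 3 the ratio was 0.997 (0.785 to 1.27), over the same pair of classes in which the 10 genes fell. Female cells held 3, 7, and 0 *FDY* UMIs, giving male-to-female ratios of 3.94 (1.10 to 21.4) at stage 1 and 20.1 (9.54 to 51.0) at stage 2, and a male level at least 49.9-fold higher at stage 3, with a lower limit of 40.02. Its near-copy *vig2*, also higher in males, stood at 692 and 546 CPM in stage 1 males and females, 1446 and 1104 at stage 2, and 1571 and 671 at stage 3. Per 1000 *vig2* UMIs, *FDY* gave 1.45 in males and 0.466 in females at stage 1, 5.10 and 0.332 at stage 2, and 4.71 and 0 at stage 3. How many *FDY* UMIs were assigned from *vig2* transcripts, or the reverse, was not tested.

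**Figure D3:**
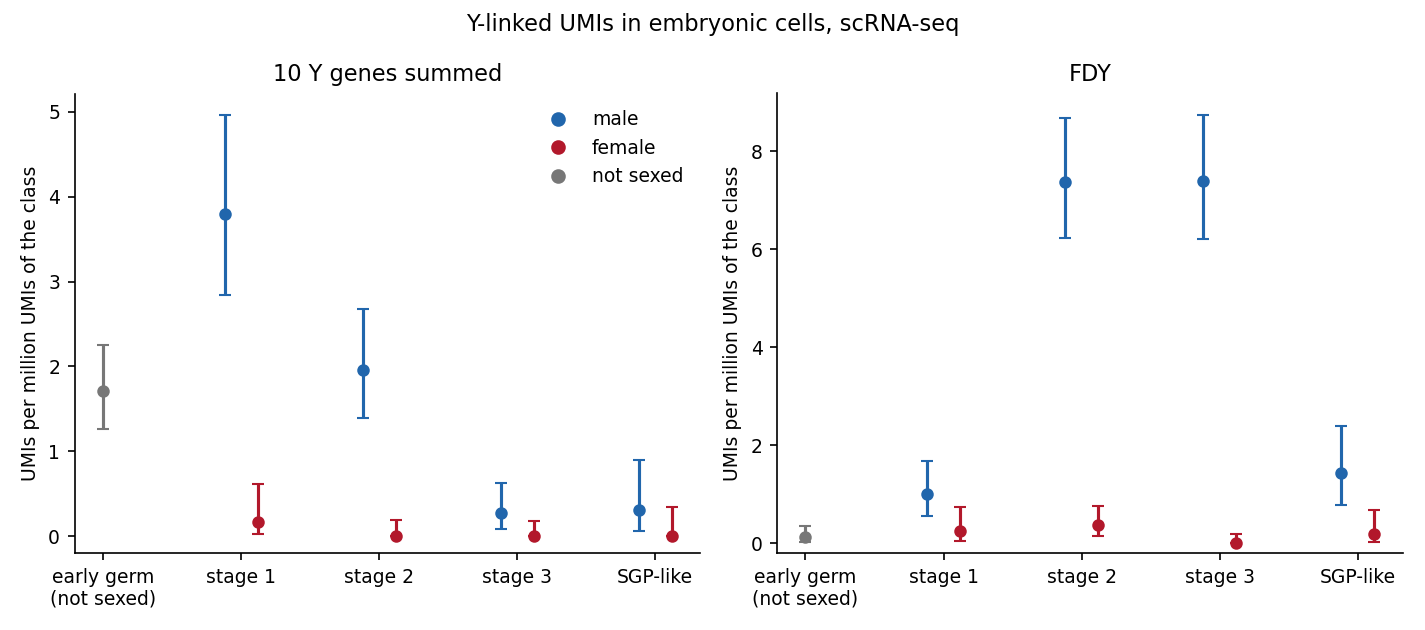
UMIs per 1000000 UMIs of each class (CPM) in scRNA-seq for the 10 Y-linked genes summed (left) and for *FDY* (right), in male (blue), female (red), and not sexed (grey) cells, with exact 95% Poisson intervals. The 10 genes stand at 3.80, 1.96, and 0.268 in males of stages 1, 2, and 3, while *FDY* stands at 1.00, 7.38, and 7.40.

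The transcripts were spread over many cells rather than concentrated in a few. Of 832 stage 1 male cells, 49 held a UMI of one of the 10 genes (5.89%, exact binomial interval 4.39% to 7.71%); 45 of these held exactly 1 UMI, 4 held more, and none held both *kl-2* and *kl-3*. At stage 2, 36 of 984 male cells held one (3.66%), of which 33 held exactly 1, and at stage 3, 4 of 1089 (0.367%). With every cell thinned to 5000 UMIs, the share was 2.35% in stage 1 males (19 of 810 cells, 1.42% to 3.64%) against 0.149% in females (1 of 671), 0.770% in stage 2 males (7 of 909, 0.310% to 1.58%) against 0 of 848 females, and 0.280% in stage 3 males (2 of 715, 0.0339% to 1.01%) against 0 of 975 females. The female intervals reached 0.828% at stage 1, 0.434% at stage 2, and 0.378% at stage 3, so that male and female intervals were apart at stage 1 and overlapped at stages 2 and 3, where the female zeros allow shares of up to 0.354% and 0.308%. Thinning left out 22 and 25 of the male and female cells at stage 1, 75 and 55 at stage 2, and 374 and 103 at stage 3. Thinned *FDY* shares in males were 4.18% at stage 2 and 3.78% at stage 3, against 0.354% and 0 in females.

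In somatic cells of the 8- to 20-h library the 10 genes were at the edge of detection. Male SGP-like cells, 1692 in number, held 3 UMIs (0.307 CPM, 0.0633 to 0.897), all in 1 cell, and 2627 female SGP-like cells held 0, which allows up to 0.281 CPM, so no difference was detectable at this depth. None of the 10 genes reached 20 UMIs in these cells, in which 5.09% of 7628 genes were at least 4-fold higher in the male cluster. The cell with the 3 UMIs, with 25679 UMIs, was deep against a median of 4800.5 for its class. These clusters took their sex from the SGP nuclei they resembled most, as a description over genes (r = 0.742 for the male and 0.741 for the female cluster). Genes were centred over a male and a female nuclear cluster, so each r to the other sex was its negative, -0.742 and -0.741. *Wnt6*, female-biased in the paper, stood at 374 CPM in the male and 1314 in the female cluster. *upd1*, male-biased in the paper, stood at 3.99 and 6.56, and at 367 in an unsexed cluster. The SGP-like cells that could not be sexed, 888 in number, held 2 UMIs. Among other soma, glia-like and muscle-like cells held 1 UMI each, and epidermis-like, fat body-like, hemocyte-like, and neuron-like cells held 0. *FDY* gave 14 UMIs in male and 2 in female SGP-like cells, a ratio of 7.64 (1.75 to 69.2), while the germ cell gene *CG4415* stood at 134 and 63.7 CPM and *vig2* at 839 and 269 in the same classes; the part of germ cell RNA in the *FDY* values was not tested.

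In the nuclear RNA the 10 genes made up 28.0 CPM over all nuclei, against 1.85 and 0.416 CPM over all cells of the scRNA-seq libraries. These levels are not like measures, since nuclei and cells were counted by different programs and intron reads may enter them differently. Germ nuclei past zygotic activation could be sexed by their X-linked RNA, as the cells were, or by the X-linked share of their ATAC counts. The RNA modes of the nuclei overlapped (0.152 and 0.1996, Ashman's D 1.88), so that 9 nuclei reached a posterior of 0.95 for male and 93 for female, and 343 were left unsexed with 125 UMIs of the 10 genes. The 9 male nuclei held 6 UMIs (256 CPM, 94.1 to 558) and the 93 female nuclei 5 (7.71 CPM, 2.50 to 18.0), a ratio of 33.2 (8.45 to 138). None of the 10 genes reached 20 UMIs with this sexing, under which 4.29% of 3147 genes were at least 4-fold higher in males.

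The ATAC modes were more separate (0.163 and 0.281, Ashman's D 3.35), and the germ nuclei sexed by them are described in what follows. Here 143 male nuclei held 97 UMIs (74.5 CPM, 60.4 to 90.8) and 147 female nuclei held 8 (5.61 CPM, 2.42 to 11.1), a ratio of 13.3 (6.47 to 31.6), and 155 nuclei between the modes held 31 (21.4 CPM). *kl-3* gave 83 of the male and 6 of the female UMIs, for a ratio of 15.1 (6.67 to 42.4). The other male UMIs were 6 of *Ppr-Y*, 3 of *kl-5*, 3 of *ORY*, 1 of *WDY*, and 1 of *CCY*, and the other female UMIs were 2 of *Ppr-Y*. Genes at least 4-fold higher in males were 0.253% of the 5929 tested in these nuclei, and *kl-3*, alone of the 10 genes in reaching 20 UMIs, was one of them. The 131 early germ nuclei held 26 UMIs (32.7 CPM, 21.4 to 48.0), among them 18 of *kl-3*, 5 of *Ppr-Y*, 2 of *WDY*, 1 of *kl-5*, and 0 of *kl-2*, the leading gene in early whole cells.

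Unlike whole cells, somatic nuclei held UMIs of the Y-linked genes readily. Female nuclei, which carry no Y, held such UMIs too, and their source was not tested. *WDY* led in SGP-like nuclei, whereas *kl-3* led in germ nuclei and in other somatic nuclei. SGP-like nuclei were sexed by the X-linked share of their ATAC counts. In 179 male SGP-like nuclei 304 UMIs were found (42.9 CPM, 38.2 to 47.9) and in 240 female ones 85 (17.8 CPM, 14.2 to 22.0), a ratio of 2.40 (1.88 to 3.09). *WDY*, which gave 1 UMI in male germ nuclei, led with 140 UMIs in male SGP-like nuclei against 32 in female ones, a ratio of 2.94 (1.99 to 4.46). *kl-3* followed with 117 against 8, a ratio of 9.83 (4.83 to 23.3). *kl-5* gave 31 against 28 UMIs (ratio 0.744, 0.432 to 1.29) and *Ppr-Y* 14 against 17 (0.554, 0.253 to 1.19), so that neither was separated between the sexes within its counting error. Of the 7469 genes tested in SGP-like nuclei, 3.59% were at least 4-fold higher in males, and 1 of the 4 Y-linked genes tested, *kl-3*, was among them, while *WDY*, *kl-5*, and *Ppr-Y* were not. Against male SGP-like nuclei, male germ nuclei had 3.86-fold the level of *kl-3* (2.88 to 5.16) and 0.0389-fold that of *WDY* (0.000978 to 0.220).

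**Figure D4:**
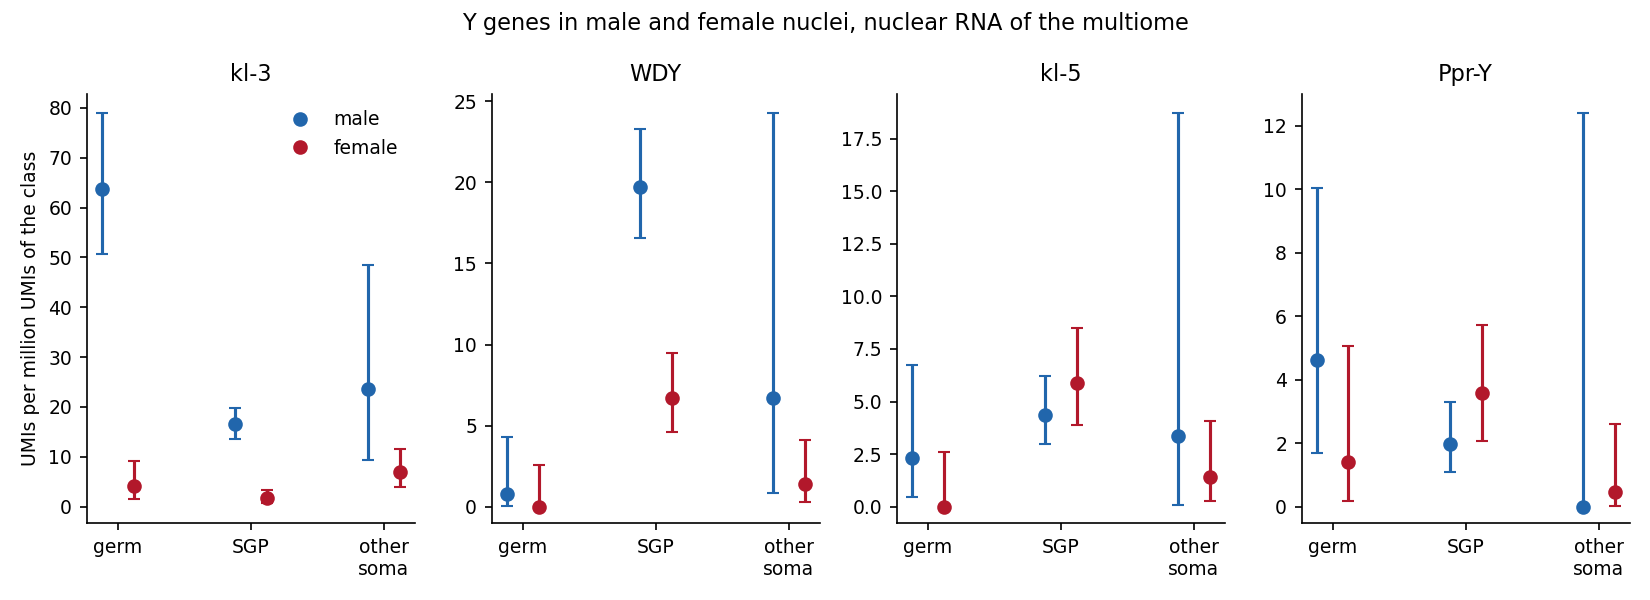
CPM of the class for *kl-3*, *WDY*, *kl-5*, and *Ppr-Y* in male (blue) and female (red) germ nuclei, SGP-like nuclei, and other somatic nuclei of the multiome library, all sexed by ATAC counts, with exact 95% Poisson intervals and a separate vertical axis per gene. *kl-3* stands at 63.7 and 4.21 in male and female germ nuclei, and *WDY* at 19.7 and 6.71 in male and female SGP-like nuclei.

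The values in SGP-like nuclei rested on few nuclei of very high depth. Among male SGP-like nuclei, 31 of 179 had over 20000 UMIs and held 93.1% of the UMIs of the class, 283 of the 304 Y-linked UMIs, and all 117 *kl-3* UMIs; one male SGP-like nucleus alone held 49 UMIs of the 10 genes. Among female SGP-like nuclei, 38 of 240 were of this depth and held 88.8% of the UMIs. In the nuclei of up to 20000 UMIs, males and females stood at 42.6 and 39.5 CPM, a ratio of 1.08 (0.561 to 2.08), *kl-3* gave 0 UMIs in males and 4 in females, and *WDY* gave 15 and 8 (ratio 2.02, 0.806 to 5.51). In these shallower nuclei no difference between male and female SGP-like nuclei was therefore detectable, whereas in germ nuclei of up to 20000 UMIs the *kl-3* ratio was 21.2 (7.93 to 79.9), with 72 against 4 UMIs. Markers of germ cells also differed with depth: 12 of 13 were detected on both sides, with *osk* at 0, and their sum stood at 1065 CPM in deep and 568 in shallower male SGP-like nuclei, at 915 and 652 in female ones, and at 1737 in shallower male germ nuclei. *zpg*, a germline gap junction gene, stood at 174, 112, and 629.6 CPM in deep male SGP-like, shallower male SGP-like, and shallower male germ nuclei, and *CG4415* at 234, 69.0, and 192. Whether deep nuclei hold the contents of more than 1 nucleus was not tested.

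In the other somatic nuclei the ATAC modes lay at 0.155 and 0.234 and were less separate than in SGP-like nuclei (Ashman's D 2.32 against 4.08), and 72 nuclei were called male, 294 female, and 727 neither. The males held 11 UMIs of the 10 genes (37.0 CPM, 18.4 to 66.1) and the females 23 (10.7 CPM, 6.80 to 16.1), a ratio of 3.44 (1.52 to 7.35). Of these nuclei, 1 male and 25 female ones had over 20000 UMIs, with 6.93% and 34.5% of the UMIs of their class. In those of up to 20000 UMIs the ratio was 3.04 (1.17 to 7.42), and that of *kl-3* 3.38 (0.989 to 10.6). Sexed instead by their *roX1* and *roX2* RNA, 489 males and 406 females of this class stood at 19.4 and 15.2 CPM, a ratio of 1.27 (0.813 to 2.03), so that the male excess in other somatic nuclei was not separated from 1 with that sexing; in SGP-like nuclei the same sexing gave 2.39 (1.83 to 3.14). *kl-3* gave 7 and 15 UMIs (ratio 3.36, 1.16 to 8.75), *WDY* 2 and 3, *kl-5* 1 and 3, and *ORY* 1 and 1. Here 0.813% of 5905 genes were at least 4-fold higher in males, and *kl-3*, the one Y-linked gene of the 10 tested, was not among them. The lncRNA *roX1* and *roX2*, components of the male dosage compensation complex, together stood at 1881 and 411 CPM in males and females of this class and at 849 and 96.9 in SGP-like nuclei; the part of wrongly sexed nuclei or of free RNA in the female values was not tested. In germ nuclei, where this complex does not act, they stood at 77.5 and 44.2.

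Chromatin accessibility gave a readout of the Y that did not enter the choice of genes. The peak set held 18 peaks on the Y, and of the 10 genes only *kl-3* contained one. Several peaks have other copies of at least 80% of their length in the genome. Y:989262-989664 has 21 on 5 chromosomes and Y:1423115-1423469 has 28 on 6, whereas Y:973871-975886 has 0. The part of such copies in the Y counts of either sex was not tested. ATAC counts in the Y peaks stood at 1605 per 1000000 ATAC counts (ATAC CPM) in male germ nuclei (1505 to 1710) and at 321 in female ones (276 to 372), a ratio of 4.996 (4.26 to 5.89). In SGP-like nuclei the values were 484 and 179, a ratio of 2.71 (2.39 to 3.09), in other somatic nuclei 736 and 285, a ratio of 2.58 (2.17 to 3.05), and in early germ nuclei 1086. By RNA sexing the female value was 320.3, and too few male germ nuclei were called to give one. The interval of this ratio lay above 1 for 8 of the 18 peaks in germ nuclei, for 9 in SGP-like nuclei, in which it lay below 1 for 2, and for 8 in other somatic nuclei. The share over all peaks of the genome is not given here, so these counts have no background to be read against.

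The peak inside *kl-3* (Y:380295-380553) lies in intron 5 of 15, 43.9 kb from the start of the gene. It held 55 counts in male and 1 in female germ nuclei (92.3 and 1.77 ATAC CPM), a ratio of 52.0 (8.96 to 2092). In SGP-like nuclei it held 30 against 4 counts, a ratio of 9.38 (3.31 to 36.7), and in other somatic nuclei 11 against 13, a ratio of 4.84 (1.96 to 11.7). Its sequence is printed from RefSeq Release 6 because it is not unique: 56 other copies of at least 80% of its length occur on 5 chromosomes, and capitals mark the 15 bases substituted relative to the closest copy (3R:864395-864651, minus strand, 93.4% identity) together with 2 further bases that the copy lacks.
peak inside kl-3 (Y:380295-380553, plus strand): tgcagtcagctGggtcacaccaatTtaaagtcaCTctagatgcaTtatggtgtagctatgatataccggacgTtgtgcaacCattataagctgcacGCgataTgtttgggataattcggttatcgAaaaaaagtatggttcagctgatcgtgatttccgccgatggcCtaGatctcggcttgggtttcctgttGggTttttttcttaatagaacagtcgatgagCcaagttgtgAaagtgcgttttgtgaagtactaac
The peak with the most counts (Y:973871-975886), which lies in no listed gene, had ratios of 7.77 (5.37 to 11.6) in germ and 13.2 (8.04 to 23.2) in SGP-like nuclei. A peak centred 3.54 kb from *FDY* (Y:3017734-3019770), upstream of its start, had ratios of 20.2 (11.1 to 41.0) and 5.63 (3.86 to 8.42). At the other 9 genes, no listed peak fell within the gene, and accessibility there was not analysed here.

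**Figure D5:**
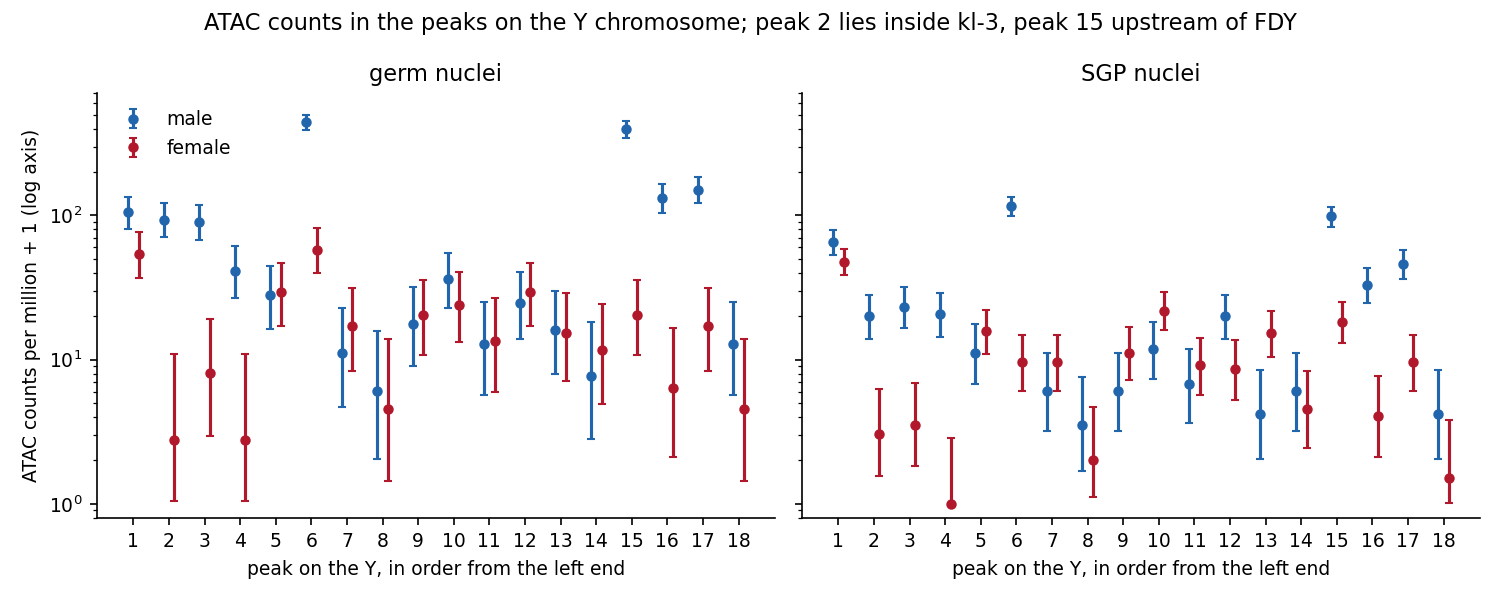
ATAC CPM plus 1, on a log axis, for each of the 18 peaks on the Y chromosome in order along it, in male (blue) and female (red) germ nuclei (left) and SGP-like nuclei (right), with exact 95% Poisson intervals; a point at 1 is a count of 0. Peak 2, inside *kl-3*, stands at 92.3 against 1.77 ATAC CPM in germ nuclei before 1 is added, and several peaks in the middle of the chromosome show overlapping intervals in the 2 sexes.

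Relatives of the Y-linked genes on other chromosomes were counted in the same cells. Dynein heavy chain genes outside the Y, most of them axonemal, were taken as a list of 9, with 5 detected at stage 1 and 7 at the later stages. They summed to 7.52 CPM in males and 5.52 in females at stage 1 (ratio 1.36, 0.992 to 1.89). At stage 2 they summed to 16.5 and 16.2 (1.02, 0.867 to 1.19), and at stage 3 to 14.0 and 20.8 (0.675, 0.576 to 0.789). Their most abundant gene, *Dhc98D*, had 77 and 40 UMIs in stage 1 males and females, a ratio of 1.63 (1.10 to 2.44), and 187 and 192 at stage 2. At stage 3 the interval lay below 1 for 2 of the 3 genes of the list with at least 20 UMIs, *Dhc36C* (31 and 105 UMIs, ratio 0.320, 0.207 to 0.482) and *Dhc98D* (148 and 255, 0.629, 0.510 to 0.773), and *Dhc62B* gave 67 and 56 (1.30, 0.896 to 1.88). PP1 catalytic genes outside the Y, of which 4 of 8 were detected in germ cells, had ratios of 0.900 (0.877 to 0.924), 1.09 (1.07 to 1.11), and 1.08 (1.06 to 1.10) for their sum at the 3 stages, while *Pp1-Y1* and *Pp1-Y2* were at 0. The sum joins genes that differed in direction: at each stage the interval lay above 1 for 2 of the 4 and below 1 for the other 2. *Pp1alpha-96A* had ratios of 1.11, 1.21, and 1.21, and *flw* of 0.669, 0.635, and 0.466.

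Genes of the transcriptional programme that accompanies Y gene expression in spermatocytes were counted in both sexes. These genes, of which 11 of 12 are listed (such as *aly* and *topi*, parts of the meiotic arrest complexes, and *mia*, *can*, and *nht*, testis forms of general transcription factors), summed to 56.3 CPM in males and 50.2 in females at stage 1 (ratio 1.12, 1.01 to 1.25), to 61.9 and 48.7 at stage 2 (1.27, 1.16 to 1.38), and to 61.8 and 47.0 at stage 3 (1.31, 1.21 to 1.43). *mia* and *achi* gave 430 and 157 of the 785 UMIs in stage 1 males, whereas *comr* gave 1 and *sa* 0. Among the genes of this list with at least 20 UMIs, the interval lay above 1 for 1 of 6 at stage 1, 3 of 7 at stage 2, and 4 of 7 at stage 3, and below 1 for 0. Over all genes with at least 20 UMIs it lay above 1 for 22%, 44.9%, and 40.4%, and below 1 for 15.6%, 17.7%, and 31.5%. Below 20 UMIs, *vis* gave 3 and 11 UMIs at stage 2 (0.262, 0.0469 to 0.991). *mia* gave 344 UMIs in females at stage 1 (ratio 1.06, 0.914 to 1.22) and 551 and 383 at stage 2 (1.38, 1.21 to 1.58), and *nht* gave 96 and 44 at stage 2 (2.09, 1.45 to 3.06). RNA-binding proteins known for Y gene transcripts in spermatocytes, with 3 of 4 genes listed, had ratios of 1.15 (1.10 to 1.21), 1.16 (1.12 to 1.19), and 0.983 (0.952 to 1.01); *blanks* gave 1522 and 1116 UMIs in males and females at stage 1 and 3430 and 2725 at stage 2. The median log2 male-to-female ratio over all genes tested was 0.07, 0.16, and 0.09 at the 3 stages.

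Among 8154 genes with at least 200 UMIs, those whose levels over 22 cell classes were most like the sum of the 10 Y-linked genes were *CG32392* (Pearson r of log2(CPM + 1) = 0.797), *veil* (0.711), *Ravus* (0.697), *CG31642* (0.685), and *CG8042* (0.666). The classes share libraries and depth, and the values are a description. *CG32392* stood at 4.80 and 2.21 CPM in stage 1 males and females and at 1.86 and 0.680 at stage 2, and was highest in the early germ cluster in which the Y-linked genes were also highest, at 5.61 CPM. *FDY*, on the same chromosome as the 10 genes, had r = 0.0687 and rank 4259.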

How the data were processed

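Gene counts of sorted *vas-GFP* cells and nuclei and ATAC counts per peak were used as deposited, without normalization. For scRNA-seq, the authors aligned reads to BDGP6 and collapsed them to UMIs (Cell Ranger 6.1.2); for the multiome, the authors used Cell Ranger ARC 1.0.0 and Signac, discarded nuclei of low RNA count (lowest total 1001 UMIs), removed doublets, and called peaks on the pooled nuclei. The aggregated matrix of both scRNA-seq libraries was not used, since it holds the same cells at reduced depth. The members and lists were chosen with earlier results of these data known.

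Each library was clustered alone, without Y-linked genes (2000 variable genes, 150 principal components, 20 neighbours, Leiden resolution 1; scanpy 1.11.5, leidenalg 0.10.2, scikit-learn 1.9.0, Python 3.11.15). For a cell type name, a minimum of 3 listed markers had to exceed the median cluster, by log2 1 in cells and 0.5 in nuclei with 5 CPM added. The mean over the list also had to reach a minimum. Somatic names further needed a gap to the next list and a listed marker among the most raised genes. Early germ clusters had at least as much *nos* as *CG4415*; later ones were sexed by a mixture of 2 normals on the X-linked share with a posterior of at least 0.95, somatic nuclei by the X-linked share of at least 1000 ATAC counts and germ nuclei both ways. SGP-like cell clusters took the sex of the most correlated SGP-like nuclei (1000 genes, r of at least 0.3 and 0.1 above the other sex). With a single nuclear cluster per sex, the second limit was met whenever the first was. Scrublet marked 10 cells (0.263%) at 0 to 8 h, too few to have worked, and 551 (4.38%) at 8 to 20 h; these stayed in the main values. Named genes are the 10 genes, any other Y-linked gene with at least 10 UMIs in a library, the most abundant members of the lists, and the 5 genes most alike. Ratios use exact conditional and shares exact Clopper-Pearson intervals (scipy 1.17.1); alignments used blastn 2.17.0 and Biopython 1.88. Sexing and intervals were run on simulated cells with set X-linked ratios and Poisson counts. Those settings follow the model behind the intervals, so the run does not show how well it describes the real cells. Alternatives covered clustering, sexing, doublets, depth, and single genes; leaving out nuclei over 20000 UMIs, or *kl-5* and *Ppr-Y*, was added after seeing the data.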

Additional observations from a re-analysis of the deposited data

How the results depend on the processing

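Of the alternatives planned for these values, 92 moved the value by less than its counting interval and 19 by more. Some of the 92 could not move: female zeros at stages 2 and 3 stay 0 in any subset of the same cells. In both scRNA-seq libraries every Y-linked UMI came from a protein-coding gene, so counting only such genes changed nothing. Leaving out Scrublet doublets kept 828 of 832 stage 1 male cells. Of 10 added after seeing the data, 7 moved it by less and 3 by more. Values were scored as moved or not, without a direction between the sexes. Without nuclei over 20000 UMIs, *kl-3* in male and female SGP-like nuclei went from 117 against 8 UMIs to 0 against 4. Male germ nuclei sexed by ATAC in place of RNA stood at 74.5 CPM, and at a posterior of at least 0.99 none was called by RNA, so that this gave no value. Without *kl-3*, the 10 genes stood at 1.65, 0.853, and 0.0536 CPM in males of stages 1, 2, and 3, at 85.4 in male germ nuclei sexed by RNA, at 26.4 in male SGP-like nuclei, and at 13.4 and 3.73 in male and female other somatic nuclei. Without *kl-5* and *Ppr-Y*, the value was 36.5 in male and 8.39 in female SGP-like nuclei. Without nuclei over 20000 UMIs, female SGP-like nuclei stood at 39.5 CPM. Without the 5% of cells with the most UMIs, stage 1 females stood at 0. Over protein-coding Y-linked genes only, the 10 genes gave 96.9% of nuclear Y-linked UMIs. The share of cells with a UMI, thinned to 2000 UMIs, was 1.09% in stage 1 males and 0 in stage 3 males, and at Leiden resolution 2 it was 0 in stage 1 females, while no stage 3 males were found at that resolution. With 50 principal components the stage 1 ratio was 7.26, and with somatic nuclei sexed by *roX* RNA that of other somatic nuclei was 1.27; the cause was not tested. Without the peak with the most counts, ATAC counts on the Y stood at 1163 and 264 counts per 1000000 (ATAC CPM) in male and female germ nuclei, 370 (369.767) in male SGP-like nuclei, and 539 and 242 in male and female other somatic nuclei; with at least 2000 ATAC counts, female germ nuclei stood at 378. The share of *FDY* reads that could belong to *vig2*, the part of free RNA in female counts, and the missing untranslated regions of 6 gene models limit these values. No paired analysis was possible because each group is 1 library.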
